A study of Rattus norvegicus with 4 samples.

Results

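The histone genes of the deposited rat gene table were taken by name, as every gene whose symbol begins with Hist followed by a number and h, or with H2af, H1f or H3f. This rule found 34 of the 34773 genes in the table, with 22 Hist names and 12 names of the H1f, H2af and H3f kind. Of the 12, the linker genes H1f1, H1f2, H1f4, H1f5 and H1f6 lie among the Hist genes on chromosome 17 and are described with them. The other 7 are the replacement gene group of H3f3a, H3f3b and H3f3c, the linker genes H1f7, H1f8 and H1f10, and H2afb3. RNA was sequenced from rat embryonic stem cells (ESCs) as 1 library of DA-5-3GFP, labelled WT, and 1 library of each of the Thop1-KO subclones #1, #2 and #3. All 4 libraries come from the rat ESC line DA-5-3 with a Rex1-GFP reporter, and the subclones differ from the control by Cas9 disruption of Thop1, which encodes the peptidase thimet oligopeptidase. Rat ESCs of the study were grown in 2i/LIF medium over a feeder layer, and the study calls DA-5-3 diploid, whereas the deposited design text calls the cells haploid. Each subclone is a single clone and the control is a single library, so all replicate spread is that of the 3 subclones. In this design of 1 library against 3, an exact one-sided permutation test cannot give a p-value under 0.25, so each adjusted p-value rests on edgeR's model of the variance.

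Histones package DNA into nucleosomes, and linker histone H1 binds where DNA enters and leaves them. The clustered, replication-dependent histone genes are transcribed in S phase, and their mRNAs end in a stem-loop that SLBP binds in place of a poly(A) tail. Replacement histone genes such as those for H3.3 are transcribed outside S phase too and give ordinary polyadenylated mRNA, and a few clustered genes are known to give polyadenylated transcripts as well. These libraries were made from RNA selected on poly-T beads, so they hold the polyadenylated fraction and whatever other RNA the beads carried. The values below are thus not total histone mRNA. Which members gave polyadenylated transcripts in these cells was not examined.

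The table held gene counts that summed to 15405499 in the control and to between 16525074 and 17936544 in the subclones. Thop1, which the KO targets, stood at 370 CPM (gene counts relative to the library's total, scaled by the TMM method) in the control and at 110, 92.5 and 149 in #1, #2 and #3. The ESC genes Pou5f1 and Nanog had at least 5602 counts in every library. The ESC marker list gave 15 genes tested for 14 symbols, since Dppa3 stood on more than 1 gene, and Zfp42 (Rex1) was not found by symbol. Of the 15, edgeR called 3 higher and 2 lower in the subclones, 33.3% beside 13.8% of all genes. Esrrb, Tfcp2l1 and Sall4 rose, with Esrrb at 237 counts in the control and 5537, 5064 and 5894 in the subclones. Utf1 and Dppa5 fell, with Utf1 at 23275 counts in the control and 10436, 7154 and 11253 in the subclones. Of 14 feeder (fibroblast) marker genes found, 11 were tested. In 8 of them every subclone exceeded the control, and in 1 the control exceeded every subclone, beside 38.1% and 37.6% of all genes tested. The summed level of the 14 markers was 387 CPM in the control and 873 to 913 CPM in the subclones. Most of it was Col1a1, at 190 CPM in the control and 304, 555 and 374 CPM in the subclones, and Fbln1, at 158 CPM against 519, 188 and 445 CPM. Among the feeder markers, Col3a1 had 95 counts in the control and 271, 1414 and 663 in the subclones, and Dcn, Thy1 and Lum had 0 counts in all libraries. S100a4 and Acta2 had negative log2 fold changes, −0.26 and −0.95. S100a4 had 148 counts in the control and 55, 291 and 93 in the subclones, and Acta2 had 104 against 38, 121 and 31. For primitive endoderm markers, 9 of 12 were tested. Every subclone exceeded the control in 7 of the 9, and the control exceeded every subclone in 2, beside 38.1% and 37.6% of all genes tested. The summed level of the 12 endoderm markers was 1032 CPM in the control and 1597 to 2185 CPM in the subclones. Most of that sum was Lama1, at 848 CPM in the control and 1215, 1361 and 1779 CPM in the subclones. Of the 9 endoderm markers tested, edgeR called 1, DESeq2 called 2, and 6 had an unadjusted p under 0.05 by edgeR. Over all genes these shares were 13.8%, 21.5% and 34%. Sox17 had 10 counts in the control and 34, 37 and 47 in the subclones, and Gata6 had 9 counts in the control and 63, 24 and 16. Gata4 had 17 counts in the control and 3, 0 and 3 in the subclones, and Sox7 had 0 counts in the control and 0, 6 and 1. The part of these marker shifts in any histone result below was not tested, and bulk RNA cannot tell fewer cells of a type from less RNA per cell.

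The promoters of the clustered linker genes are shown first, because 1 of these genes, H1f2, was the member that differed between the genotypes by edgeR's test, and the others are its relatives in the cluster. Each sequence is the 150 bases before the annotated start, 5′ to 3′ along the gene's own strand, from RefSeq's GRCr8 assembly, whose coordinates are given. Capitals mark CCAAT (the box of that name), AAACACA (the H1 box, an element known from linker histone promoters), TATAAA (one form of the TATA box) and ATTTGCAT (the octamer known from H2B promoters). All motifs were searched on both strands, and where TATAAA matches on both strands overlap they are capitalised as 1 run.
H1f1, chr17:41794869-41795018, minus strand: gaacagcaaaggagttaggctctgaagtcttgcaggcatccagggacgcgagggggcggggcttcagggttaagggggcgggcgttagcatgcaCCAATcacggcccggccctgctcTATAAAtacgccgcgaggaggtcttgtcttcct
H1f2, chr17:41820454-41820603, minus strand: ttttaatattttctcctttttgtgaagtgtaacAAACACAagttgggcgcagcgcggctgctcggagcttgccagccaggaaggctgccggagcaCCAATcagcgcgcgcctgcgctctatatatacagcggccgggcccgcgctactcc
H1f4, chr17:41914275-41914424, plus strand: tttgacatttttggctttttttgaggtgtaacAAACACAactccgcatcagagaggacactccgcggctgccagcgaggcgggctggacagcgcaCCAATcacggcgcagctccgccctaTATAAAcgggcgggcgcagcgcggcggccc
H1f5, chr17:47421725-47421874, plus strand: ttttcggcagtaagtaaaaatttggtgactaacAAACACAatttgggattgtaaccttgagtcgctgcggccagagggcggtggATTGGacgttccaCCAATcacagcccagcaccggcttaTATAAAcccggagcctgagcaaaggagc
H1f6, chr17:41855961-41856110, minus strand: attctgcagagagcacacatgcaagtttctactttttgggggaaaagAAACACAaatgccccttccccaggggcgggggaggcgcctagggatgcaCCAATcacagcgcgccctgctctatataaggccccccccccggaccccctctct
Hist2h2be, chr2:186469302-186469451, plus strand: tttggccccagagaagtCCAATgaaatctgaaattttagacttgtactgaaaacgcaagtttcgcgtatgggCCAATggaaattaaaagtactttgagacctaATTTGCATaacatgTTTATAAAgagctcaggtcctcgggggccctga
Hist2h2be, an H2B gene of the chromosome 2 cluster, is added as the other member, of those tested, that lay higher in every subclone than in the control.

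All 5 linker promoters held CCAAT between 53 and 56 bases before the start (counted to its first base), and H1f5 had a further match on the other strand. H1f2, H1f4, H1f5 and H1f6 also held AAACACA, and H1f1 did not. TATAAA was found in H1f1, H1f4 and H1f5 and not in H1f2 or H1f6. Compared base by base from the annotated start, with no gaps, H1f2 shared 46% of its 150 bases with H1f4, 36.7% with H1f5, 28.7% with H1f6 and 28% with H1f1. Elements at unlike distances from the start do not line up in such a comparison. AAACACA, for one, began 117 bases before the start in H1f2 and 103 in H1f6. The promoter of Hist2h2be held no AAACACA but held ATTTGCAT and CCAAT. A promoter could be matched for 17 of the 34 members by symbol and place. Of these, 15 held CCAAT against 23.5% of all 33469 promoters, 6 held TATAAA against 8%, 5 held AAACACA against 3.29% and 5 held ATTTGCAT against 0.899%. These matches describe letters in a window and were not tested.

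Of the 34 members, 28 had at least 1 count and 6 had 0 counts in every library, namely H1f7, H1f8, H2afb3, Hist1h2bq, Hist1h4b and Hist2h4. The filter on low counts left 18 members for the test, 9 with Hist names and 9 with H1f or H3f names. All members together took 0.165% to 0.183% of the gene counts of a library. The 22 Hist genes took between 0.00234% and 0.00317%, which is 387 to 569 counts per library. Most of the member counts were thus from the replacement genes, and the H3f3 genes alone took 0.144% to 0.165%. Most deposited gene lengths, 28 of 34, were multiples of 3, as coding lengths are, though that alone does not make them coding lengths. The H2B genes Hist3h2ba (630 bases) and Hist1h2bo (1035) were longer than the 381 bases of Hist2h2be and Hist1h2bl. Where the length is that of the coding sequence, reads beyond the coding ends were not counted.

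**Figure D1:**
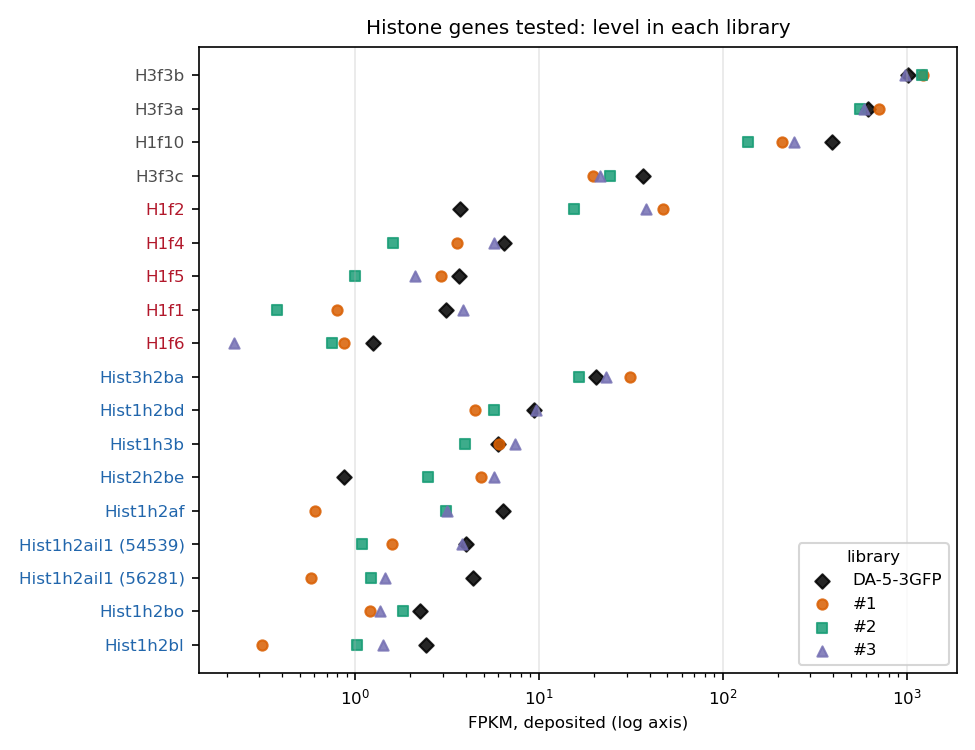
Deposited FPKM (log axis) of the 18 histone genes tested, 1 point per library, with replacement or variant genes in grey, linker genes of the cluster in red and Hist genes in blue (the bracketed digits are the end of the gene ID for the symbol listed more than once). The H3f3 genes H3f3a and H3f3b lie at 558 FPKM or more in all 4 libraries, and H1f2 is the member whose control point lies farthest below the subclones.

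The 3 subclones were tested against the control with edgeR's quasi-likelihood test, and p-values were adjusted over 15028 genes by the Benjamini-Hochberg method. It called 1 of the 18 members tested, H1f2, which was higher in the subclones, beside 13.8% of all genes tested (8.62% higher and 5.17% lower). The share of members called, 5.56%, lay below that of all genes. None of the 9 Hist genes tested was called by edgeR, with 2 of them at an unadjusted p under 0.05 and 0 called by DESeq2. Over all members, 5 of 18 had an unadjusted p under 0.05, beside 34% of all genes, and DESeq2's Wald test called 2, H1f2 and H1f10, beside 21.5% of all genes. The log2 fold change was negative in 13 members and positive in 5, with a median of −0.79 beside 0.06 over all genes tested. The median was −0.61 for Hist names and −0.82 for the other names, which include the 5 clustered linker genes. Over all 14 clustered genes tested, linker genes included, it was −0.84. Over the 4 replacement or variant genes tested it was −0.37, with 2 positive and 2 negative values. The control library lay above all subclones for 10 members (37.6% of all genes tested) and below them for 2 (38.1% of all genes tested). Members had fewer counts than most genes, and the median standard error was 0.70 on the log2 scale, beside 0.43 over all genes tested.

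**Figure D2:**
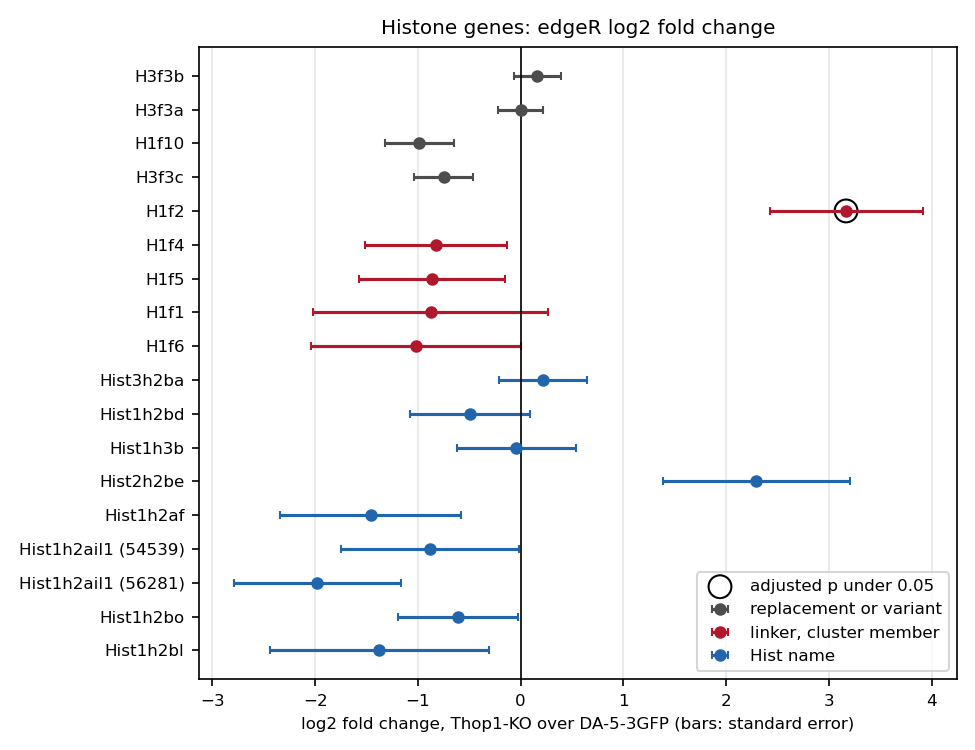
edgeR log2 fold change, Thop1-KO over DA-5-3GFP, with its standard error for the 18 histone genes tested; the circle marks an adjusted p under 0.05. H1f2 at 3.17 is circled, Hist2h2be at 2.29 has the next largest positive value, and 13 members lie to the left of 0.

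H1f2 (ENSRNOG00000054978) encodes a somatic linker histone of the H1 family. It occupies chromosome 17, positions 43639749 to 43640387, minus strand, in the deposited coordinates, whose genome build is not given in the sources used here, as 1 stretch of 639 bases equal to its counted length. It had 36 counts in the control and 508, 178 and 451 in #1, #2 and #3. In TMM-scaled CPM it stood at 2.42 in the control and at 30.3, 10.1 and 25.1 in the subclones, 21.8 ± 10.5 (SD, n = 3). All subclones lay above the control, by 12.5-fold in #1, 4.16-fold in #2 and 10.4-fold in #3, and the subclones themselves spanned 3.01-fold. The exact 95% Poisson interval of the control's count, which covers counting error only, ran from 25.2 to 49.8 and stayed far below the lowest subclone. The log2 fold change was 3.17 with a standard error of 0.74 (adjusted p = 0.0383, edgeR quasi-likelihood test, Benjamini-Hochberg). DESeq2 gave an adjusted p of 3.88e-06. The call was lost without #3, where edgeR gave an adjusted p of 0.0801, and in limma on log2(FPKM + 1), where it was 0.0851, with a log2 fold change of at least 2.73 in all 13 alternatives.

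The nearest genes tested on either side of H1f2 had the opposite sign. The histone gene LOC102549173, whose start lies 6074 bases below that of H1f2, had 53 counts in the control and 19, 28 and 14 in the subclones, with a log2 fold change of −1.61 that edgeR did not call (adjusted p = 0.115). Hfe, which takes part in the control of iron uptake and starts 21473 bases above it, had 130 counts in the control and 34, 75 and 53 in the subclones, with a log2 fold change of −1.51 (edgeR adjusted p = 0.0829). The control lay above all subclones in both.

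Of the other 4 clustered linker genes with H1f names, none was called by edgeR or DESeq2, and each had a negative log2 fold change. H1f4 had 64 counts in the control and 40, 19 and 69 in #1, #2 and #3, and after scaling the control lay above each subclone, at a log2 fold change of −0.82 (standard error 0.69). H1f5 had 37 counts in the control and 33, 12 and 26 in the subclones, a log2 fold change of −0.87 (standard error 0.71). H1f1 had 35 counts in the control and 10, 5 and 53 in the subclones, a log2 fold change of −0.88 (standard error 1.14), and here the control fell inside a subclone range that spanned 10.4-fold. H1f6, the testis-type linker histone, was close to the limit of the filter with 14 counts in the control and 11, 10 and 3 in the subclones. The changes in these 4 genes were not distinguishable from 0 at this depth. A further clustered linker gene stands outside the name rule as H4f3, described in the table as H1.3. It had 30 counts in the control and 28, 28 and 67 in the subclones, with the control inside the subclone range and a log2 fold change of 0.21 (standard error 0.70), which edgeR did not call.

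The share of H1f2 within a library can be read without any scaling between libraries. H1f2 gave 36 of the 186 counts on the 5 clustered linker genes with H1f names in the control, 19.4% (exact binomial 95% interval 13.9% to 25.8%, counting error only). It gave 84.4% of 602 counts in #1 (81.2% to 87.2%), 79.5% of 224 in #2 (73.6% to 84.6%) and 74.9% of 602 in #3 (71.3% to 78.3%). The control's interval did not overlap that of any subclone, and #2, whose H1f2 level was lowest among the subclones, had a share between those of #1 and #3. With H4f3 in the denominator the shares were 16.7% in the control and 80.6%, 70.6% and 67.4% in #1, #2 and #3. With H1f10 as well, which held most linker counts in every library, H1f2 was 0.988% of 3643 counts in the control (0.693% to 1.37%) and 18.9%, 10.7% and 13.7% in the subclones. Summed over the 5 genes with H1f names, the level was 12.5 CPM in the control and 35.9, 12.7 and 33.5 CPM in #1, #2 and #3, so the sum in #2 was close to the control. Without H1f2, the sum was 10.1 CPM in the control and 5.61, 2.60 and 8.40 CPM in the subclones, with the control above each of them.

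H1f10 encodes a linker histone that lies outside the clusters, on chromosome 4, and is transcribed independently of replication. It had 3427 counts in the control and 2059, 1415 and 2623 in #1, #2 and #3, or 231 CPM against 123, 80.0 and 146 CPM. The control lay above all subclones, at a log2 fold change of −0.99 (standard error 0.34). edgeR did not call it (adjusted p = 0.0933), DESeq2 did (adjusted p = 0.0469), and so did edgeR without #2 (adjusted p = 0.0101), with a log2 fold change of −0.78. Per length, H1f10 was the linker gene with the highest level in each library, at 393 FPKM in the control and 211, 137 and 246 FPKM in the subclones.

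The H3f3 genes encode the replacement histone H3.3, which is deposited outside replication by chaperones such as HIRA. The gene named H3f3a in the table, on chromosome 10, had 15452 counts in the control and 19819, 16530 and 18021 in the subclones. Its CPM was 1040 in the control and 1182, 935 and 1003 in #1, #2 and #3, with the control inside the range of the subclones and a log2 fold change of 0.00 (standard error 0.22). The gene named H3f3b, on chromosome 13, stood at 423 CPM in the control and 506, 503 and 412 CPM in the subclones, a log2 fold change of 0.16 (standard error 0.23), again with the control inside their range. RefSeq's GRCr8 annotation gives these 2 symbols the other way round, with H3f3b on chromosome 10 and H3f3a on chromosome 13, so the genes are told apart here by chromosome. Per length, the gene on chromosome 13 had 977 to 1222 FPKM and the one on chromosome 10 had 558 to 709 FPKM, and their ranges over the 4 libraries did not overlap. The deposited length of the chromosome 13 gene was 411 bases, a coding length, against 1655 bases for the other, so the FPKM values divide by unlike stretches of the 2 mRNAs.

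H3f3c, which RefSeq lists as a pseudogene and the deposited table as protein-coding, had 552 counts in the control and 329, 436 and 395 in the subclones. The control lay above all subclones, at a log2 fold change of −0.75 (standard error 0.29, edgeR adjusted p = 0.121). Without #2 edgeR called it (adjusted p = 0.0310). As a close copy of the H3.3 coding sequence it may share reads with H3f3a and H3f3b, so its counts are uncertain. The summed level of the 3 H3f3 genes was 1500 CPM in the control and 1707, 1462 and 1437 CPM in the subclones, so the control was inside the range of the subclones.

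Among the Hist genes, Hist3h2ba, an H2B gene and the lone member of that name on chromosome 10, had the most counts in each library. It had 194 counts in the control and 333, 187 and 270 in the subclones, with the control inside the subclone range and a log2 fold change of 0.21 (standard error 0.43). It took 13.1 of the 31.2 CPM summed over Hist genes in the control. That sum was 29.8, 21.9 and 31.7 CPM in #1, #2 and #3, so the control lay within the subclones, with a mean over the subclones of 0.891 of the control. Without Hist3h2ba the sum was 18.1 CPM in the control and 9.90, 11.3 and 16.6 CPM in the subclones, with the control above each and the ratio at 0.697.

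The Hist genes were also summed by chromosome. The 13 Hist genes on chromosome 17 summed to 16.9 CPM in the control and 7.51, 9.28 and 13.6 CPM in the subclones. The 4 on chromosome 2 summed to 0.740 CPM in the control and 2.03, 1.58 and 2.50 CPM in the subclones, which is 11 counts in the control and 34, 28 and 45 in the subclones. The control lay above all subclones in the former and below them in the latter, and the difference between the clusters was not tested. The position on chromosome 2 rested on 1 gene, Hist2h2be. Without it the other 3 genes there had 6 counts in the control and 3, 11 and 5 in the subclones, with the control inside their range.

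Hist2h2be (ENSRNOG00000045753), an H2B gene, had 5 counts in the control and 31, 17 and 40 in #1, #2 and #3. The groups did not overlap, with 0.337 CPM in the control and 1.68 ± 0.649 CPM (SD, n = 3) in the subclones. Its log2 fold change was 2.29 (standard error 0.91), with an unadjusted p of 0.0410 and an adjusted p of 0.131 from edgeR's quasi-likelihood test. Without #2 edgeR called it (adjusted p = 0.0354). It was the member that passed the filter through the subclones only, since the control did not reach 10 counts.

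Of the Hist genes with H2A names, 3 were tested and none was called by edgeR or DESeq2. Hist1h2af had 38 counts in the control and 4, 22 and 23 in the subclones, with the control above all of them and a log2 fold change of −1.46 (standard error 0.88). The symbol Hist1h2ail1 stood on 2 genes. ENSRNOG00000056281 had 27 counts in the control and 4, 9 and 11 in the subclones, and its log2 fold change of −1.98 (standard error 0.81) was the lowest of the 18 members tested, with an adjusted p of 0.140 by edgeR. ENSRNOG00000054539 had 25 counts in the control and 11, 8 and 29 in the subclones, a log2 fold change of −0.88. Both have a length of 411 bases, the length of the H3 gene Hist1h3b, so the name may not give the histone type. The 10 Hist genes with H2A names summed to 7.60 CPM in the control and 1.91, 3.56 and 4.84 CPM in the subclones, with the control above each.

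The H2B genes of chromosome 17 that were tested, Hist1h2bd, Hist1h2bo and Hist1h2bl, had negative log2 fold changes, and none was called. Hist1h2bd had 54 counts in the control and 29, 39 and 68 in the subclones, with the control inside the subclone range and a log2 fold change of −0.50 (standard error 0.59). Hist1h2bo had 35 counts in the control and 21, 34 and 26 in the subclones, a log2 fold change of −0.61. Its span of chromosome 17 holds H1f5 and one of the Hist1h2ail1 genes on the other strand, and whether reads were counted by strand is not given in the sources used here, so their counts are uncertain. Hist1h2bl had 14 counts in the control and 2, 7 and 10 in the subclones, a log2 fold change of −1.37 (standard error 1.06). It passed the filter through its control count.

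Hist1h3b, the H3 gene with the most counts under a Hist name, had 37 counts in the control and 42, 29 and 56 in the subclones. The control lay inside their range, and the log2 fold change was −0.04 (standard error 0.58). H4 names were nearly absent, with 10 counts over 4 genes in the control and 7, 9 and 12 in the subclones. A further 10 Hist genes had a count but too few for the test. The highest of them was Hist2h4a, an H4 gene, with 7 counts in the control and 6, 7 and 9 in the subclones. Hist1h2ak had 1 count in the control and 7, 5 and 4 in the subclones. Differences in these genes were not detectable at this depth, where 1 count was worth 0.0557 to 0.0673 CPM.

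**Figure D3:**
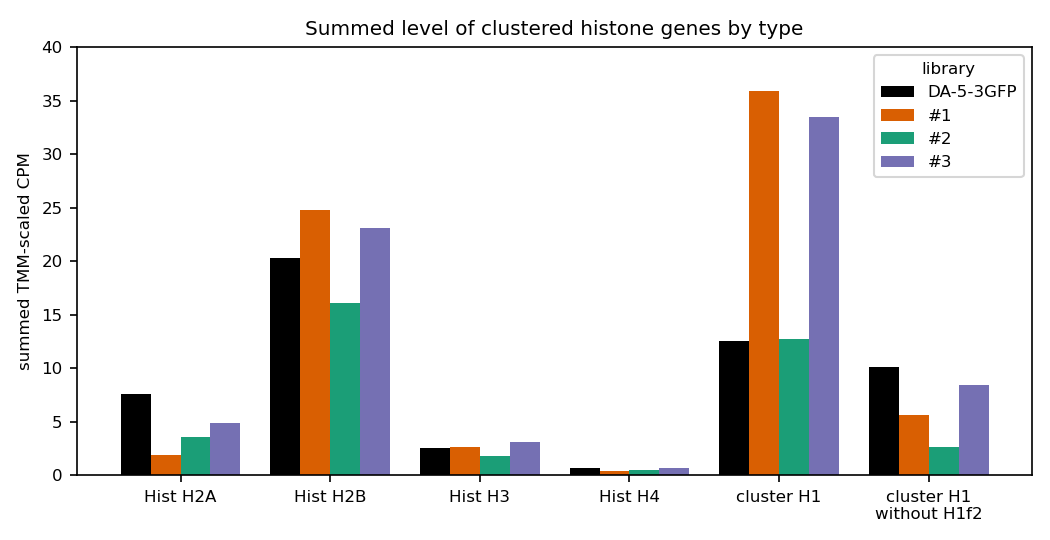
Summed TMM-scaled CPM of clustered histone genes by type as named in the table, 1 bar per library. H1f2 makes the difference between the last 2 groups of bars: the sum of the 5 linker genes with H1f names was 12.5 CPM in the control and 12.7 to 35.9 CPM in the subclones with it, and 10.1 against 2.60 to 8.40 CPM without it.

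The subclones also differed among themselves. #2 was the lowest subclone in 10 of the 18 members tested and #3 the highest in 10, with both true of 6 members. Among the 6 linker genes tested, H1f10 included, #2 was lowest in 5, the exception being H1f6. Among the 9 Hist genes tested, #3 was highest in 7, and the lowest was #1 in 5 and #2 in 4. These orders were not tested. The highest subclone exceeded the lowest by between 1.23-fold for H3f3b and 10.4-fold for H1f1. The summed level of snRNA, snoRNA and scaRNA genes, which mostly lack a poly(A) tail, was 173 CPM in the control and 168, 191 and 171 CPM in #1, #2 and #3, so it did not put the control apart from the subclones.

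Many rat histone genes stand in the table under other symbols. A search of the deposited descriptions, made after the table was seen, found 45 of them, with 6 variant genes, 4 pseudogenes and 35 others. Most of the 35 are described as clustered genes or as like H2A, H2B, H3 or H4 genes. They also hold the H2A.J genes H2aj and LOC103690002, the H3.3-like AABR07017253.1 and RGD1564548, and the spermatid gene Hils1. Among those named, LOC103690002 alone was tested. Of these 35, 22 were tested, 18 with a negative and 4 with a positive log2 fold change, at a median of −0.93. edgeR called 1 of the 22 (13.8% of all genes tested), lower in the subclones: LOC102548682 (ENSRNOG00000050478), described as like an H4 gene. It had 98 counts in the control and 30, 21 and 38 in the subclones (log2 fold change −1.95, standard error 0.49, edgeR adjusted p = 0.0462). Its length of 411 bases is that of the H3 gene Hist1h3b, so the description may not give the histone type. The other genes tested under that symbol had log2 fold changes of −1.78, −1.35 and 1.01, none called by edgeR. Of the 22, DESeq2 called 4, all lower (21.5% of all genes in either direction). Summed, the 35 genes stood at 46.1 CPM in the control and 15.3, 16.0 and 24.1 CPM in the subclones. In 14 of the 22 the control exceeded every subclone, and in 1 it lay below them, beside 37.6% and 38.1% of all genes tested. Of the clustered linker genes of the name rule, H1f4, H1f5 and H1f6 also had the control above every subclone. The filter keeps a gene that reaches its cutoff in 1 library. Some of the 22 thus entered through the control alone and some through a subclone alone. LOC100910554 entered with 12 counts in the control and 5, 7 and 5 in the subclones, and H2ac1 with 2 against 3, 6 and 14. The filter therefore shaped in part how often the control lay above or below every subclone. Near-identical copies may share reads in this table, and the counting options are not given in the sources used here.

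**Figure D4:**
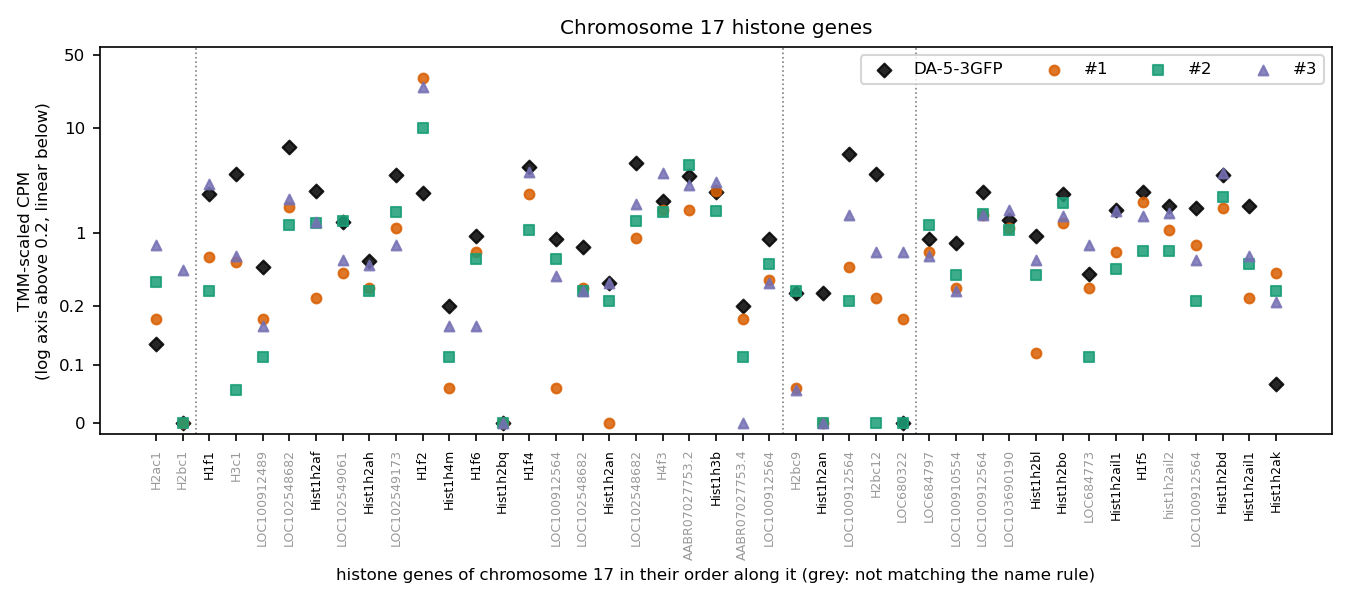
TMM-scaled CPM (log axis above 0.2, linear below) of each chromosome 17 histone gene in order along the chromosome, 1 point per library, with genes of the name rule in black letters and those under other symbols in grey; dotted lines mark gaps between stretches of the cluster. The control diamond lies above every subclone in 27 of the 42 genes with a count and below them in 3, of which H1f2 is one, at 2.42 against 10.1 to 30.3. Over all genes tested these shares were 37.6% and 38.1%. The 42 include genes with too few counts for the test, so the 2 sets are unlike.

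Variant histone genes under other symbols were tested in 6 cases, and edgeR called 0, with DESeq2 calling 1. Over all genes edgeR called 13.8% and DESeq2 21.5%. Macroh2a1, which encodes a large H2A variant linked to silent chromatin, had 1503 counts in the control and 3012, 2932 and 3542 in the subclones, a log2 fold change of 0.84 (edgeR adjusted p = 0.0674, DESeq2 adjusted p = 0.0443). H2ax, which encodes the H2A variant phosphorylated at DNA breaks, had 4560 counts in the control and 3380, 3655 and 3393 in the subclones, a log2 fold change of −0.62 (edgeR adjusted p = 0.0927). H2az1 had 19571 counts in the control and 12161, 22568 and 11802 in the subclones, a log2 fold change of −0.57 (edgeR adjusted p = 0.313), with #2 close to the control after scaling.

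The genes that make, trim and destroy histone mRNA were taken from lists, whose calls are set beside the 8.62% of all genes called higher and the 5.17% called lower. Of 26 genes of stem-loop histone mRNA transcription and processing tested, edgeR called 1, Cdk2, the S-phase kinase, which was higher in the subclones with 247 counts in the control and 661, 606 and 755 in the subclones (log2 fold change 1.21). Slbp, whose product binds the stem-loop, stood at 67.7 CPM in the control and 59.8, 86.0 and 58.1 CPM in the subclones, a log2 fold change of 0.01, with the control inside the subclone range. The log2 fold change was −0.55 for Npat, the coactivator of clustered histone genes, and −0.22 for Casp8ap2. It was 0.08 for Lsm11 and −0.61 for Lsm10, subunits of the U7 particle that cuts the mRNA end. Neither Slbp nor any of these genes was called.

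Of 19 genes of histone mRNA decay tested, edgeR called 1 higher and 3 lower, 21.1% beside 13.8% of all genes. Upf1, the helicase that takes part in the decay of histone mRNA after replication stops, rose from 2416 counts in the control to 7380, 5760 and 7616 in the subclones (log2 fold change 1.29). Eri1, the exonuclease that trims the stem-loop end, fell from 773 counts in the control to 260, 406 and 383 (log2 fold change −1.38). Lsm5 and Lsm3, subunits of the Lsm ring that binds decaying mRNA, fell as well, at log2 fold changes of −1.64 and −1.28. Of the 14 genes of the poly(A) tail list, none was called by edgeR or DESeq2, and 0 had an unadjusted p under 0.05.

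Of 34 genes tested from the histone chaperone list, 3 were higher and 6 were lower by edgeR, 26.5% beside 13.8% of all genes. The list also holds Cenpa, the centromeric H3 variant, and Set stood on more than 1 gene. Hjurp, the chaperone of the centromeric H3 variant, stood at 296 counts in the control and 1672, 2275 and 2624 in the subclones (log2 fold change 2.65), and Rbbp4 and Spty2d1 were the other 2 that rose. Nasp, which carries histones H3 and H4 and linker histones, fell from 3827 counts in the control to 723, 1835 and 1446 (log2 fold change −1.76). Npm1, Nap1l1, Dek, Znhit1 and Rbbp7 fell too, with Npm1 at a log2 fold change of −1.53. Hira, the H3.3 chaperone, had 7 counts in the control and 48, 128 and 233 in the subclones, a log2 fold change of 4.01 that edgeR did not call (adjusted p = 0.0522) and DESeq2 did (adjusted p = 0.000163).

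Of 30 S-phase genes tested, edgeR called 3 higher and 1 lower, 13.3%, a share close to the 13.8% of all genes. Rrm2, the small subunit of ribonucleotide reductase, stood at 923 counts in the control and 8139, 6428 and 5685 in the subclones (log2 fold change 2.65). Lig1, the replicative DNA ligase, and Uhrf1, which guides maintenance DNA methylation, rose at log2 fold changes of 3.10 and 1.39. Pcna, the sliding clamp of the replication fork, fell from 5264 counts in the control to 2080, 2872 and 2046 (log2 fold change −1.41). Of the 15 ESC marker genes tested, 3 were higher and 2 lower. Of the 11 feeder markers tested edgeR called 0, with 4 at an unadjusted p under 0.05 and 3 called by DESeq2. Over all genes these shares were 13.8%, 34% and 21.5%. The primitive endoderm marker that edgeR called was Lamb1, higher.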

How the data were processed

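Poly(A) RNA-seq of 1 DA-5-3GFP and 3 Thop1-KO libraries was analysed, grouped by genotype label. The authors deposited raw counts per gene, and FPKM values made from them, after cleaning reads with the FASTX toolkit; HISAT2 2.0.5 and featureCounts 1.5.0-p3 are named in the submitters' processing notes. The genome build, strand setting and treatment of multi-mapped reads are not given in the sources used here, so counts of near-identical histone genes are uncertain. Counts were filtered by filterByExpr (minimum count 10), normalized by TMM and tested with edgeR 4.0.16 in R 4.3.3 (quasi-likelihood, Benjamini-Hochberg, adjusted p under 0.05), a procedure tested on simulated data. Levels between libraries are TMM-scaled CPM, and levels between genes are FPKM. Alternatives used DESeq2 1.42.0, limma 3.58.1, other scalings and filters, a length correction and omission of each subclone. Library totals were 15405499 to 17936544, and no pair of libraries agreed within sampling noise. The subclones were separately picked colonies, and p-values measure the spread between them, with no replicate of the control. Figures were drawn with matplotlib 3.10.9 from tables made with pandas 2.3.3, scipy 1.17.1 and numpy 2.4.6 in Python 3.11.15. The members and gene lists were chosen with earlier results of these data known. Values per library are given for every H1f or H3f gene tested and the 10 Hist genes with the highest mean FPKM. List genes named are those called plus core factors. Hira, Hist1h2ak, the endoderm and feeder markers named, the neighbours of H1f2 and genes under other symbols were chosen after their values were seen.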

Additional observations from a re-analysis of the deposited data

How the results depend on the processing

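The counts of members called, the medians and sums, and 18 members one by one were recomputed under other scalings, tools, filters and sets of subclones. Of 226 values for single members, 205 kept their direction and side of the threshold. H1f2 was called in 9 of 13 alternatives and had a positive log2 fold change in all, at adjusted p-values between 3.88e-06 and 0.138. No paired analysis was possible because the control has 1 library and its label gives no replicate number.

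Among Hist genes, the number called higher was 0 and ranged from 0 to 1 when a subclone was left out, with Hist2h2be called without #2. The number called lower was 0 and became 1, Hist1h2an (4 counts in the control and 0 in each subclone), in limma on log2(FPKM + 1) with no filter. Among H1f and H3f genes, the number called higher was 1 and became 0 in limma with either pseudocount or no filter, and ranged from 0 to 1 without 1 subclone, being 0 without #3. The number called lower was 0, became 1 (H1f10) in DESeq2 and ranged from 0 to 2 without 1 subclone, being 2 without #2. Calls over all genes moved the same way, from 2072 to 5572 without #2 and to 457 without #3. The median log2 fold change of H1f and H3f genes, −0.82, was −0.52 after the length correction, which moved the median of all genes from 0.06 to −0.09, and between −0.75 and −0.46 (without #2) without 1 subclone. The ratio of summed Hist levels went from 0.891 to 0.697 without Hist3h2ba.

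Over the processing, decay, poly(A) tail, chaperone and S-phase lists, 8 genes were called higher and 10 lower. In limma with a pseudocount of 1 or 0.1 these were 5 and 2, with no filter 4 and 0, and with the length correction 5 and 15. Without 1 subclone they ranged from 4 to 15 higher and from 1 to 29 lower, the highest without #2 and the lowest without #3. For H3f3a, whose log2 fold change was 0.00, the sign turned with DESeq2's size factors (−0.012), upper quartile scaling (−0.10), DESeq2 (−0.0016), at least 10 counts in every library (−0.0098), limma (−0.0092), and the length correction (−0.076), and it ranged from −0.093 (without #1) to 0.072 without 1 subclone. Without 1 subclone Hist3h2ba ranged from −0.020 (without #1) to 0.42, and with the length correction it was 0.59. Hist1h3b turned to 0.019 with library size only and 0.43 with the length correction, and ranged from −0.26 to 0.18 (without #2) without 1 subclone. The cause of these changes was not tested. The counts of the clustered genes, mostly under 100 per library, limit what could be detected.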
